A study of Caenorhabditis elegans with 21 samples.

Results

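The haf genes of Caenorhabditis elegans encode half-transporters, ABC proteins that carry a single membrane-spanning domain and a single nucleotide-binding domain and work in pairs. The 8 members haf-1, haf-2, haf-3, haf-4, haf-6, haf-7, haf-8 and haf-9 were taken by name from the 22037 genes of the data. The family was chosen by the measured level of haf-6, which was lower than in N2 in rhy-1, hif-1 and egl-9 hif-1 worms, and the other members by their names. RNA of whole worms was sequenced from wild-type N2 and from 6 mutants of genes that act with, or on, HIF-1, the hypoxia-inducible transcription factor. The single mutants were hif-1(ia4), vhl-1(ok161), egl-9(sa307) and rhy-1(ok1402). The double mutants egl-9(sa307);vhl-1(ok161) and, with hif-1 lost as well as egl-9, egl-9(sa307) hif-1(ia4) carry the same alleles, so each gene was represented by 1 allele. Each of the 7 genotypes had 3 libraries, 21 in all, and a library held 7329864 to 10102598 estimated counts. All worms were synchronized young adults that showed no eggs yet, fed OP50 bacteria, and each library came from a pool of picked worms.

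ABC half-transporters hydrolyse ATP and move their cargo as pairs, of like or unlike members. The set of pairs in a cell thus depends on which members it makes. HAF-1 sits in the inner mitochondrial membrane, exports peptides from the matrix and takes part in signalling of the mitochondrial unfolded protein response. HAF-4 and HAF-9 pair with each other on the membrane of granular organelles in intestinal cells. HAF-6 is required for efficient RNA interference. In the HIF-1 pathway, the hydroxylase EGL-9 marks HIF-1, VHL-1 recognises the mark and leads HIF-1 to degradation, and EGL-9 is itself controlled by RHY-1.

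The mutated genes were looked at first as a check of the labels. The hif-1 level was 115 ± 14.2 CPM (counts scaled to library size, mean ± SD, n = 3) in N2, 17.7 ± 4.0 in hif-1 and 13.7 ± 0.337 in egl-9 hif-1. The vhl-1 level was 0 in every egl-9;vhl-1 and vhl-1 library, but it was only 1.69 ± 0.578 CPM in N2, so that check rests on few counts. A count per gene does not show the egl-9 and rhy-1 lesions, so it did not check those labels. Since whole worms were lysed, fewer cells of a type and less RNA per cell cannot be told apart.

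In N2, the 8 genes covered a wide range of levels. On the deposited scale that corrects for transcript length (TPM, mean ± SD, n = 3), haf-6 was the highest at 49.8 ± 5.66, followed by haf-4 at 40.4 ± 8.45 and haf-2 at 31.5 ± 2.75. Next came haf-3 at 22.9 ± 1.00 TPM, haf-9 at 19.1 ± 1.5 TPM, haf-7 at 4.33 ± 1.02 TPM and haf-1 at 1.81 ± 0.271 TPM. The libraries of haf-6 and haf-4 overlapped, as did those of haf-4 and haf-2, so these neighbours in the order did not differ beyond their spread. The other neighbours did not overlap.

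The gene haf-8 was at the limit of detection. It had 0 counts in 20 of the 21 libraries and 1 count in rhy-1 replicate 2. A count of 0 allows up to 3 counts in a library, which corresponds to 0.297 to 0.409 CPM, and this limit covers counting error only. The filter on low counts removed haf-8, and the other 7 genes had counts in all 21 libraries and passed it.

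Across the 21 libraries, haf-6 had the widest range of TPM, which follows from its choice for low levels in rhy-1, hif-1 and egl-9 hif-1. Its highest TPM was 9.31 times its lowest, against ratios from 1.37 for haf-3 to 2.71 for haf-9 among the other 6 genes that passed the filter. Its rank by genotype follows from the same choice and is given as a description. The gene haf-6 ranked 1 by TPM in N2, in vhl-1 (48.5 ± 1.21 TPM) and in egl-9;vhl-1 (49.5 ± 2.42 TPM). In egl-9 it came at 42.1 ± 2.04 TPM, just under haf-4 at 44.4 ± 5.43 TPM, with overlapping libraries. In rhy-1 it ranked 6 at 6.91 ± 0.437 TPM, overlapping haf-7 at 7.06 ± 1.18 TPM, and it ranked 5 in egl-9 hif-1 at 7.71 ± 1.68 TPM, again overlapping haf-7 at 5.42 ± 0.619 TPM. In hif-1 it ranked 5 at 7.61 ± 0.843 TPM, above haf-7 without overlap.

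**Figure D1:**
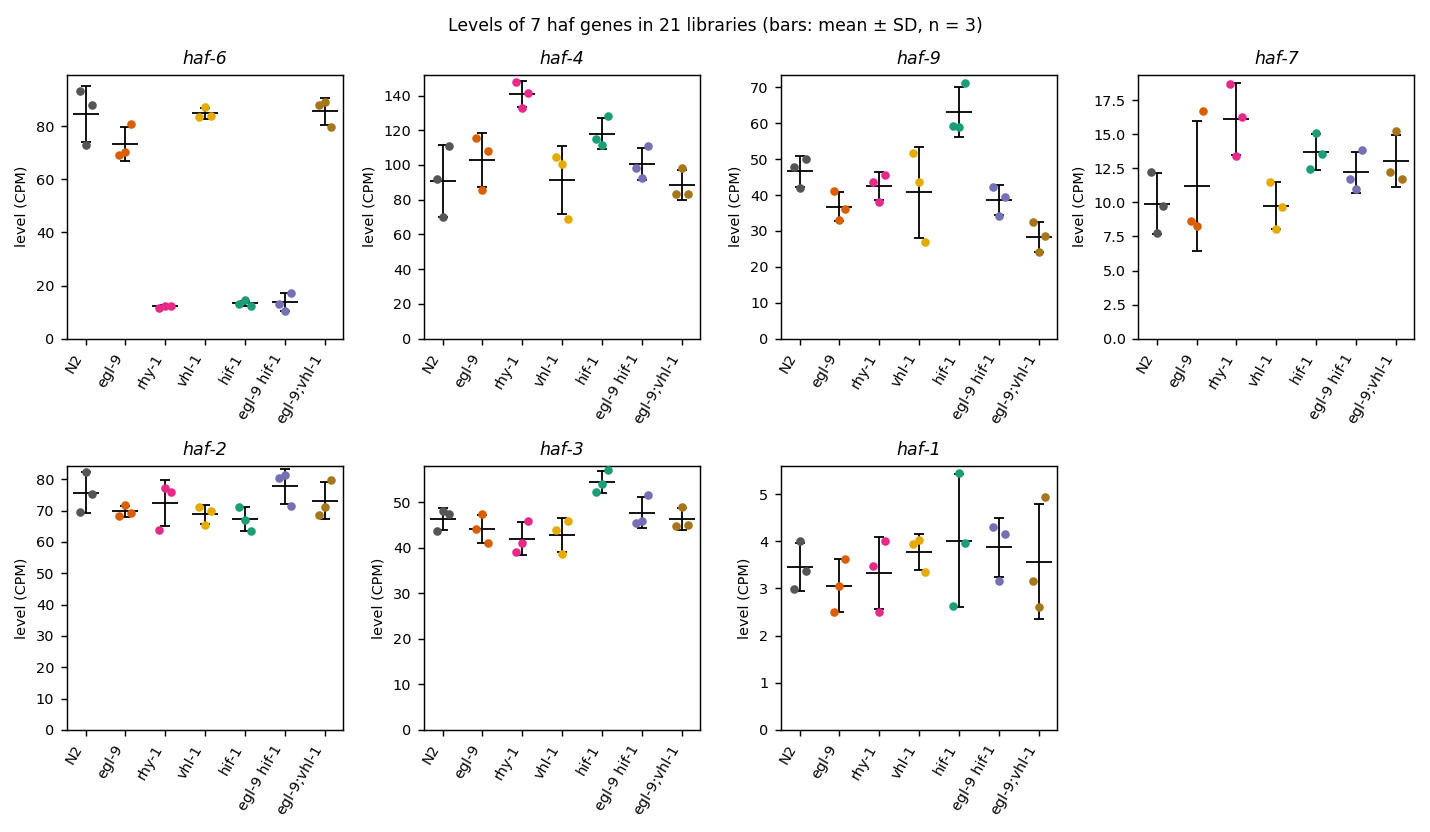
Levels of the 7 haf genes that passed the filter on low counts, in CPM (counts scaled to library size, y axis from 0) by genotype (x axis). Points are libraries and bars are mean ± SD with n = 3. The haf-6 libraries of rhy-1, hif-1 and egl-9 hif-1 lie between 10.6 and 17.3 CPM and those of the other 4 genotypes between 69.1 and 93.1 CPM.

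The RNA interference gene haf-6 maps to the minus strand of chromosome I, bases 1162880 to 1175809 (WBcel235). It had 93.1, 72.8 and 87.8 CPM in the 3 N2 libraries, or 901, 619 and 728 counts. In rhy-1 it had 11.6, 12.4 and 12.4 CPM, or 117, 124 and 118 counts. All rhy-1 libraries were thus far below all N2 libraries, and the rhy-1 libraries were close to each other. The hif-1 libraries had 12.9, 14.5 and 12.4 CPM, and the egl-9 hif-1 libraries had 13.2, 10.6 and 17.3 CPM. These genotypes overlapped each other and rhy-1, and none of their libraries came near N2.

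The remaining genotypes were in the range of N2 or close to it. The egl-9 libraries had 69.1, 70.3 and 80.7 CPM of haf-6, and the vhl-1 libraries 83.4, 87.0 and 83.9 CPM. The egl-9;vhl-1 libraries had 87.8, 89.0 and 79.6 CPM. Each of these genotypes overlapped N2. The low level was therefore seen both where hif-1 was mutated and in rhy-1, while egl-9, vhl-1 and egl-9;vhl-1 kept a high level.

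As a description, since these values chose the gene and no test is given, haf-6 was 6.96-fold lower than N2 in rhy-1 (log2 fold change −2.80 ± 0.13 SE). It was 6.39-fold lower in hif-1 (−2.67 ± 0.13) and 6.18-fold lower in egl-9 hif-1 (−2.63 ± 0.13). Against the same N2 libraries the log2 fold change was −0.21 ± 0.12 in egl-9, 0.0024 ± 0.12 in vhl-1 and 0.014 ± 0.12 in egl-9;vhl-1. All 6 comparisons share the N2 libraries, so their values are not independent of each other. The level in egl-9 hif-1 was 5.36-fold lower than in egl-9 (−2.42 ± 0.13) and differed from hif-1 by 0.047 ± 0.14.

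The comparisons without N2, rhy-1 or a hif-1 mutant were not part of the choice and were tested. Between egl-9;vhl-1 and egl-9, the haf-6 log2 fold change was 0.22 ± 0.12, with an adjusted p of 0.281 in edgeR's quasi-likelihood test. Between egl-9;vhl-1 and vhl-1 it was 0.012 ± 0.12 (edgeR adjusted p = 0.965), and between egl-9 and vhl-1 it was −0.21 ± 0.12 (edgeR adjusted p = 0.321). In these comparisons haf-6 did not pass the threshold of 0.05.

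**Figure D2:**
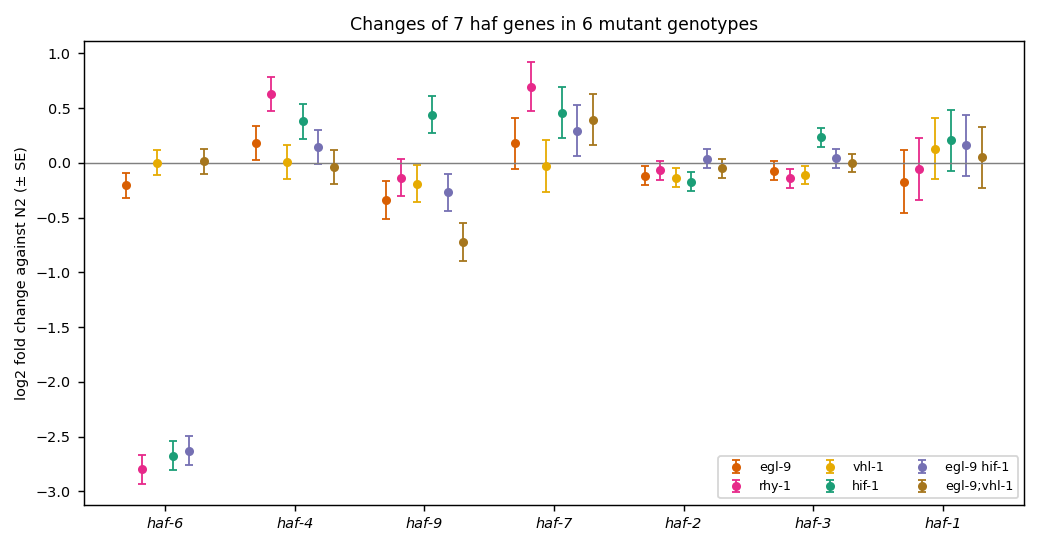
Log2 fold change against N2 (y axis) of 7 haf genes (x axis) in the 6 mutant genotypes, shown by colour. Points are edgeR estimates and bars are ± SE, with n = 3 libraries per genotype. The haf-6 values of rhy-1, hif-1 and egl-9 hif-1, which chose the gene, are −2.80, −2.67 and −2.63, while the values of all other genes lie between −0.72 and 0.70.

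The annotation gives haf-6 4 transcripts in the data, of which Y48G8AL.11a (2186 bases), Y48G8AL.11b.1 (1789 bases) and Y48G8AL.11b.2 (1763 bases) had 10 or more estimated counts in at least 3 libraries. Y48G8AL.11a had 635, 319 and 454 estimated counts in N2 and 67.0, 116 and 96.6 in rhy-1. In hif-1 it had 113, 92.4 and 67.0, and in egl-9 hif-1 it had 53.7, 71.3 and 160. Y48G8AL.11b.2 had 208, 295 and 273 estimated counts in N2, against 45.1, 0.445 and 21.4 in rhy-1. Both main transcripts were thus lower in every rhy-1 library than in every N2 library.

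The share of Y48G8AL.11a in the haf-6 counts was 48.8 to 98.5% (median 79.0%) in the 9 libraries of the 3 low genotypes. In the other 12 libraries it was 51.6 to 70.5% (median 62.8%). The ranges overlapped. Shares of isoforms are kallisto estimates, and the few counts of the low libraries limit their precision.

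**Figure D3:**
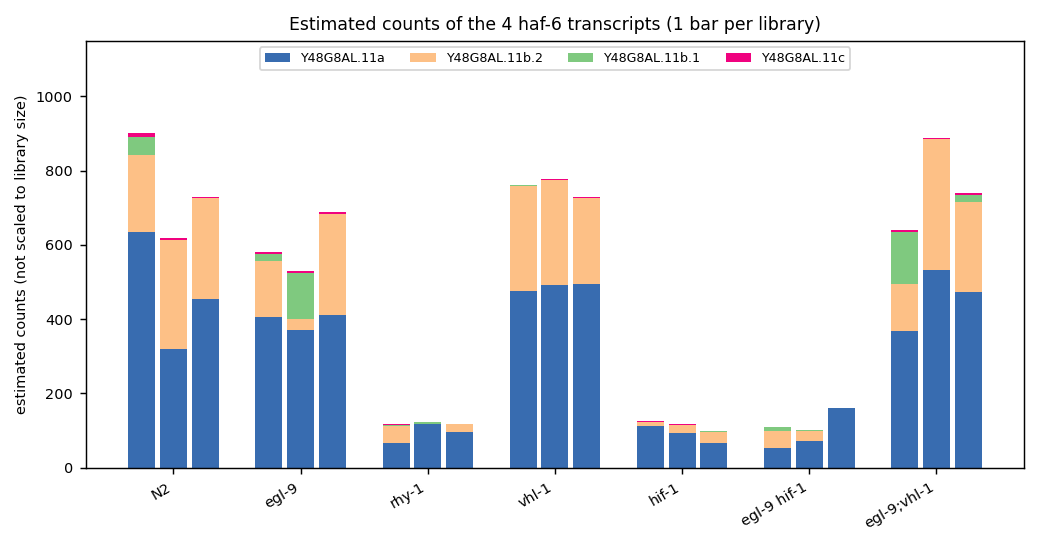
Estimated counts of the 4 haf-6 transcripts (y axis from 0, not scaled to library size) in each of the 21 libraries, with 1 stacked bar per library and 3 per genotype. In the 9 libraries of egl-9 hif-1, hif-1 and rhy-1, each whole bar is between 100 and 162 counts and Y48G8AL.11a holds most of it in all but 1 library.

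The genes next to haf-6 did not share its pattern. The 4 nearest tested genes on each side were znf-236, aps-3, rpl-17 and Y48G8AL.7 before it and smg-2, nsun-2, herc-1 and Y48G8AL.13 after it. In rhy-1, hif-1 and egl-9 hif-1 against N2, their log2 fold changes ran from −0.47 to 0.20. Of 24 tests, 2 were called lower and 0 higher. The called genes were rpl-17, a ribosomal protein gene (−0.47 ± 0.12, edgeR adjusted p = 0.00569), and smg-2, a helicase of nonsense-mediated decay (−0.24 ± 0.08, edgeR adjusted p = 0.0369), both in rhy-1.

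The nearest gene, Y48G8AL.7, shares 44 bases with haf-6 on the opposite strand, and the library protocol does not mark the strand, so reads there cannot be assigned to either gene with certainty. Its log2 fold change was −0.065 ± 0.23 in rhy-1, −0.30 ± 0.24 in hif-1 and −0.16 ± 0.24 in egl-9 hif-1. None of these passed the test. The aps-3 gene codes for a subunit of the AP-3 adaptor that builds gut granules, lysosome-related organelles of intestinal cells. It had −0.30 ± 0.25 in both rhy-1 and hif-1 and was not called there.

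**Figure D4:**
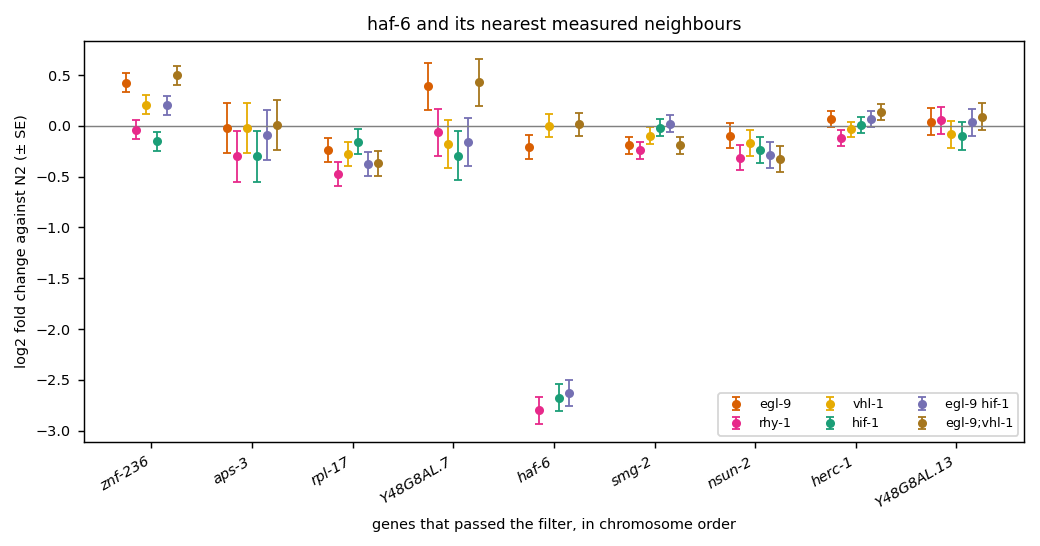
Log2 fold change against N2 (y axis, ± SE, n = 3 libraries per genotype) of haf-6 and the 4 nearest tested genes on each side, in chromosome order (x axis), with the 6 mutant genotypes by colour. The 8 neighbours lie between −0.47 and 0.50 and haf-6 lies at −2.80 in rhy-1, −2.67 in hif-1 and −2.63 in egl-9 hif-1.

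The same split of the libraries was counted over all genes. Of 13043 tested genes, 1 (0.00767%) was lower in all 9 libraries of rhy-1, hif-1 and egl-9 hif-1 than in all other 12, and this gene was haf-6. Because haf-6 was chosen for that split, the count is no evidence about it. In the opposite direction, 13 genes (0.0997%) were higher in all 9 libraries than in the other 12, 8 of them at least 2-fold in mean CPM. They included asns-2, an asparagine synthetase gene, with a mean of 205 CPM in the 9 libraries and 54.4 CPM in the 12. The F-box gene fbxa-192 had 7.90 against 2.75 CPM. The amino acid transporter gene aat-2 had 17.3 against 8.48 CPM, and prg-1, which encodes a Piwi Argonaute of the germline, had 276 against 238 CPM.

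Likeness to haf-6 was measured as Pearson's r of log2(CPM + 1) over the 21 libraries. Only the 1540 genes that had a gene name, and whose genotype means spanned at least 1 on that scale, were ranked. The libraries share genotypes, so these values are descriptions. The named genes with the highest r were clec-125 (0.77), fln-2 (0.75), scl-6 (0.75), sre-45 (0.73) and ugt-65 (0.71). None of them had the split of haf-6, and clec-125 and sre-45 reached at most 3.51 and 3.87 CPM. In fln-2, a filamin gene, the rhy-1 mean was 123 CPM beside 136 in N2, and ugt-65 had 8.36 CPM in N2, as low as its 8.93 in rhy-1, and 43.3 to 54.7 CPM in egl-9, vhl-1 and egl-9;vhl-1. The genes with the most negative r, named after their values were seen, were fbxa-192 (−0.97), srlf-30 (−0.92), asns-2 (−0.89), pph-7 (−0.88) and aat-2 (−0.84), all among the 13 genes above.

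The intestinal granule gene haf-4 rose in rhy-1. On chromosome I at 489969 to 496158, plus strand, it had 91.8, 69.8 and 111 CPM in N2 and 148, 133 and 141 CPM in rhy-1. All rhy-1 libraries were above all N2 libraries, and above every library of the other genotypes. The rise was 1.55-fold (log2 fold change 0.63 ± 0.16, edgeR adjusted p = 0.00477), and it was called whichever library was left out (adjusted p from 0.00151 to 0.0367). Taken 1 by 1, its transcripts W04C9.1a and W04C9.1b changed by 0.80 ± 0.28 and 0.32 ± 0.28 in rhy-1 and were not called (edgeR adjusted p = 0.0734 and 0.560).

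In the other genotypes haf-4 was not called. It had 115, 85.6 and 108 CPM in egl-9, 105, 101 and 69.1 CPM in vhl-1 and 115, 111.2 and 128 CPM in hif-1. The hif-1 libraries were above those of N2, the highest of which had 111.0 CPM, by a narrow margin, and the log2 fold change of 0.38 ± 0.16 had an edgeR adjusted p of 0.109. Without N2 replicate 3 it was 0.55 and called (edgeR adjusted p = 0.0297). The egl-9 hif-1 libraries had 98.4, 92.6 and 111 CPM and the egl-9;vhl-1 libraries 83.4, 98.3 and 83.3 CPM.

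The partner gene haf-9 did not rise with haf-4 in rhy-1. It lies on chromosome I at 6081782 to 6086006, plus strand, and had 47.9, 41.9 and 50.0 CPM in N2 and 43.5, 38.1 and 45.6 CPM in rhy-1. These genotypes overlapped, and the log2 fold change was −0.14 ± 0.17 (edgeR adjusted p = 0.607). Its changes came elsewhere.

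In egl-9;vhl-1, haf-9 had 32.4, 24.0 and 28.6 CPM, below every N2 library. It fell 1.65-fold against N2 (log2 fold change −0.72 ± 0.17, edgeR adjusted p = 0.00328), and the call held without any 1 library (adjusted p from 0.000254 to 0.0182). The vhl-1 libraries had 51.8, 43.7 and 26.9 CPM, so replicate 3 lay apart from the other 2 and overlapped egl-9;vhl-1. The fall from vhl-1 to egl-9;vhl-1 was −0.53 ± 0.17 (edgeR adjusted p = 0.0420). That call was lost without vhl-1 replicate 1 (−0.32, adjusted p = 0.259), vhl-1 replicate 2 (0.130), egl-9;vhl-1 replicate 2 (0.163), egl-9;vhl-1 replicate 3 (0.0970) or rhy-1 replicate 1 (0.0503). Fitted with only these genotypes, its edgeR adjusted p was 0.108.

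In hif-1, haf-9 had 59.3, 59.0 and 71.2 CPM, above all other libraries of the data. Against N2 the log2 fold change of 0.44 ± 0.17 did not pass the test (edgeR adjusted p = 0.0854). It passed without vhl-1 replicate 3 (0.0243) and when only N2 and hif-1 were fitted (0.0380). The egl-9 hif-1 libraries had 42.4, 34.2 and 39.4 CPM, all below those of hif-1, and the fall was 1.63-fold (−0.71 ± 0.17, edgeR adjusted p = 0.00450, from 0.000519 to 0.0263 with each library left out). The egl-9 libraries had 41.2, 33.1 and 36.1 CPM, below those of N2, with a log2 fold change of −0.34 ± 0.17 that was not called (edgeR adjusted p = 0.165).

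The haf-9 counts were split among transcripts of nearly the same length. ZK484.2a.1 (2582 bases), ZK484.2a.2 (2577 bases) and ZK484.2a.3 (2595 bases) took most of the counts in different libraries. In vhl-1, for example, ZK484.2a.1 held 83.8, 15.9 and 234 estimated counts and ZK484.2a.3 held 330, 125 and 0.138. ZK484.2b.1 and ZK484.2b.2 had 0 counts in all libraries. No haf-9 transcript passed the test alone in any of the comparisons above, so the haf-9 results rest on the summed gene count.

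Levels of haf-4 and haf-9 were therefore set against each other within each library, a measure chosen after their values were seen. The ratio of haf-4 TPM to haf-9 TPM was 2.08, 1.803 and 2.42 in N2 and 2.12, 2.03 and 1.99 in hif-1. In rhy-1 it was 3.67, 3.73 and 3.36, above every library of N2, egl-9, vhl-1, hif-1 and egl-9 hif-1. It was 2.99, 2.83 and 3.18 in egl-9, 2.20, 2.47 and 2.77 in vhl-1 and 2.47, 2.97 and 3.04 in egl-9 hif-1. The egl-9;vhl-1 libraries spread most, with 2.80, 4.35 and 3.16. The genotypes egl-9, rhy-1, egl-9;vhl-1 and egl-9 hif-1 lay above N2 without overlap, while vhl-1 and hif-1 overlapped it.

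**Figure D5:**
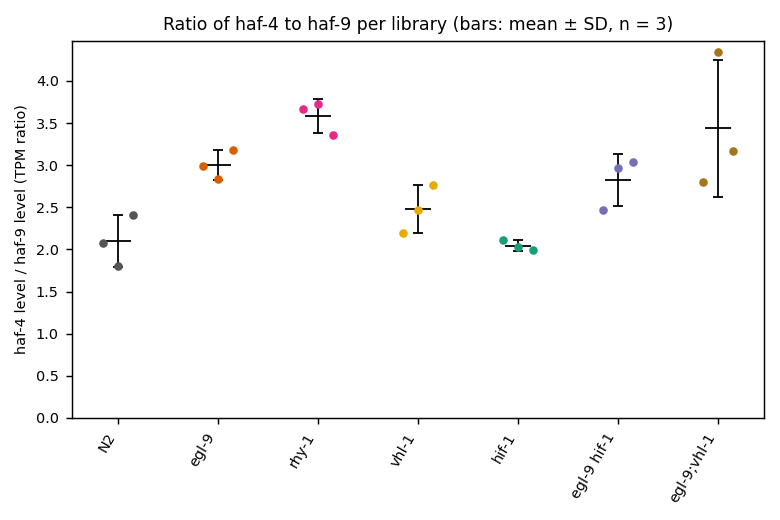
Ratio of the haf-4 level to the haf-9 level per library, both in TPM (y axis from 0), by genotype (x axis). Points are libraries and bars are mean ± SD with n = 3. N2 lies between 1.803 and 2.42, hif-1 between 1.99 and 2.12 and rhy-1 between 3.36 and 3.73.

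Markers of tissue and stage also differed between genotypes, some lists in mixed directions, and their part in these results was not tested. Of all tested genes, 29.5% were called in either direction in rhy-1, 25.8% in egl-9 and 12.5% in vhl-1 against N2. The shares were 14.4% in hif-1, 6.55% in egl-9 hif-1 and 34.6% in egl-9;vhl-1 against N2, and 30.5% in egl-9 hif-1 against hif-1. In rhy-1 against N2, 4 of 9 intestine markers were called higher and 3 lower, with a summed level of 3299 to 3435 CPM against 3364 to 3880 in N2. In hif-1 the sum was 4536 to 5229 CPM and in egl-9 hif-1 2654 to 3376 CPM, with 7 of 9 lower and 0 higher between them. In egl-9;vhl-1 it was 4126 to 4385 CPM, with 2 of 9 higher and 3 lower against N2 (median log2 fold change 0.078). L4 molt markers summed to 34.5 to 36.1 CPM in N2. Their sum was 89.8 to 308 CPM in rhy-1, where 6 of 10 were higher and 0 lower. It was 54.4 to 352 CPM in egl-9, where 5 of 10 were higher and 0 lower. The vhl-1 sum was 56.3 to 133 CPM (2 higher, 0 lower) and the egl-9;vhl-1 sum 53.1 to 154 CPM (1 higher, 0 lower). For hif-1 it was 33.7 to 45.2 CPM and for egl-9 hif-1 39.1 to 42.7 CPM, each with 0 higher and 0 lower.

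Germline and oocyte markers summed to 8214 to 9428 CPM in N2, 9453 to 9604 in rhy-1 (1 of 11 higher and 2 lower), 7967 to 8601 in hif-1, 10940 to 11628 in egl-9;vhl-1 and 10656 to 11522 in egl-9 hif-1. They were called higher for 7 of 11 in egl-9;vhl-1 against N2, with 1 lower, and for 8 of 11 in egl-9 hif-1 against hif-1, with 0 lower. Sperm markers summed to 301 to 458 CPM in N2 and 178 to 217 in egl-9;vhl-1, where 8 of 9 tested were lower, and 6 of 9 were lower in egl-9 hif-1 against hif-1. The sperm marker msp-31 was at 0 in all libraries, and no intestine, germline or molt marker was. Zygotic embryo markers, of which 1 of 6 was tested, summed to 1.21 to 1.53 CPM in N2 and 2.00 to 3.44 CPM in egl-9;vhl-1.

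The gene haf-7, on chromosome V at 14773258 to 14777697, plus strand, was low throughout. It had 12.2, 7.77 and 9.77 CPM in N2, or 118, 66 and 81 counts, and 18.7, 13.4 and 16.3 CPM in rhy-1. All rhy-1 libraries were above all N2 libraries. The rise was 1.62-fold (log2 fold change 0.70 ± 0.23, edgeR adjusted p = 0.0256), and the call was lost when rhy-1 replicate 1 (0.109), rhy-1 replicate 3 (0.0559), N2 replicate 2 (0.127) or N2 replicate 3 (0.0613) was left out. In egl-9 it had 8.66, 8.24 and 16.7 CPM, so that replicate 3 lay apart from the other 2, and no other comparison of haf-7 was called.

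The gene haf-2, on chromosome II at 7353576 to 7356426, minus strand, ran from 63.4 CPM in a hif-1 library to 82.4 CPM in an N2 library and was called in no comparison. Its largest contrast was between hif-1 (71.0, 67.1 and 63.4 CPM) and egl-9 hif-1 (80.5, 81.3 and 71.4 CPM). These groups did not overlap, by a margin under 1 CPM, and the log2 fold change was 0.21 ± 0.09 (edgeR adjusted p = 0.0713). Under DESeq2 it was called (0.0390), as it was with RLE size factors (0.0373), a minimum count of 30 (0.0232), only these genotypes (0.0452) or without egl-9 hif-1 replicate 3 (0.0252).

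The gene haf-3, on chromosome V at 15760455 to 15766172, minus strand, had the smallest ratio of highest to lowest TPM (1.37) of the 7 genes that passed the filter, while in CPM haf-2 had the narrower relative range. It had 43.6, 48.02 and 47.4 CPM in N2 and 52.2, 54.1 and 57.1 CPM in hif-1, which lay above N2 without overlap. That log2 fold change of 0.23 ± 0.08 did not pass the test (edgeR adjusted p = 0.0706). Across all genotypes haf-3 ran from 38.8 to 57.1 CPM.

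The mitochondrial gene haf-1, on chromosome IV at 17376427 to 17379310, plus strand, had only 21 to 46 counts per library, or 2.49 to 5.44 CPM. Its log2 fold changes against N2 lay between −0.17 and 0.21, with standard errors of 0.28 to 0.29. None was called, and a difference within these errors was not detectable at this depth.

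Counted over the members, few haf genes changed in any comparison. The counts leave out haf-8, and also haf-6 wherever N2, rhy-1 or a hif-1 mutant entered. In rhy-1 against N2, 2 of 6 were higher (haf-4 and haf-7) and 0 lower, while 29.5% of all tested genes were called in either direction and 16.7% higher. In egl-9;vhl-1 against N2, 0 of 6 were higher and 1 lower (haf-9), with 34.6% of all genes called and 18.1% lower. In both, the share of members called in either direction was near or below that of all genes, so it is not a result about the family.

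No member was called in the other comparisons with N2, where 25.8% of all genes were called in egl-9, 12.5% in vhl-1, 14.4% in hif-1 and 6.55% in egl-9 hif-1. At an unadjusted edgeR p below 0.05 there were 0 of 6 in egl-9, vhl-1 and egl-9 hif-1 and 3 of 6 (haf-3, haf-4 and haf-9) in hif-1, and DESeq2 called 0 in each. The share of all genes below that unadjusted threshold was not counted. The unadjusted counts of members therefore have no background beside them and are not a result about the family. Between mutants, 0 of 6 were called in egl-9 hif-1 against egl-9 (21.4% of all genes; 0 by unadjusted p or by DESeq2) and 1 of 6, lower, in egl-9 hif-1 against hif-1 (30.5%, with 17.7% lower). With haf-6 included, 0 of 7 were called in egl-9;vhl-1 against egl-9 (8.47%) and in egl-9 against vhl-1 (12%) and 1 of 7, lower, in egl-9;vhl-1 against vhl-1 (17.2%, with 10.0% lower). Some of these shares rest on single libraries. The count behind the 8.47% was 1105 genes and ran from 248 without egl-9 replicate 1 to 1820 without egl-9 replicate 2. The 1872 genes called in hif-1 against N2 became 828 without hif-1 replicate 3, the 854 in egl-9 hif-1 against N2 became 342 without egl-9 hif-1 replicate 3, and the 1629 in vhl-1 against N2 became 975 without N2 replicate 2. By unadjusted edgeR p, 1 of 7 (haf-9) was below 0.05 in egl-9;vhl-1 against egl-9 and 0 in egl-9 against vhl-1, and DESeq2 called 0 in both. In egl-9 hif-1 against hif-1 it was 3 of 6 (haf-2, haf-3 and haf-9), and DESeq2 called 2 (haf-2 and haf-9).

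The interaction of egl-9 and hif-1, which sets the double mutant against the summed changes of the single mutants, was called for 0 of 6 members and for 22.1% of all genes. That of egl-9 and vhl-1 was called for 0 of 6 members and 8.79% of all genes. At an unadjusted edgeR p below 0.05 there were 1 member (haf-2) and 0 members, and DESeq2 called the same numbers. The share of all genes at that unadjusted threshold was not counted. The largest egl-9 and hif-1 interaction of a tested member was that of haf-4 (−0.42 ± 0.22, edgeR adjusted p = 0.191). For haf-2 it was 0.33 ± 0.12 (edgeR adjusted p = 0.0597), and with DESeq2 it was called (0.0324). For haf-6, given as a description, the interaction of egl-9 and hif-1 was 0.25 ± 0.18.

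Medians over the 6 members other than haf-6 were small. Against N2 they were −0.094 in egl-9, −0.061 in rhy-1, −0.070 in vhl-1, 0.31 in hif-1, 0.094 in egl-9 hif-1 and −0.020 in egl-9;vhl-1. Over all tested genes the medians of these comparisons lay between −0.035 and 0.041. In hif-1, 4 of the 6 members (haf-3, haf-4, haf-7 and haf-9) had all libraries above N2. Of all genes, 32.3% did not overlap there in either direction, and the share above N2 alone was not counted. In egl-9 hif-1 against hif-1, 4 of 6 did not overlap (43.6% of all genes, in either direction). There haf-2 was higher than in hif-1, and haf-3, haf-4 and haf-9 were lower.

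Pearson's r of log2(CPM + 1) over the 21 libraries was taken for all pairs of members that passed the filter. The largest in absolute size were 0.62 between haf-4 and haf-7, −0.61 between haf-4 and haf-6 and 0.52 between haf-4 and haf-9. The r of haf-6 was negative with every other member, −0.49 with haf-7 and −0.43 with haf-9, and it carries the split that chose haf-6. These are descriptions, because the libraries share genotypes and scaling.

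Other ABC transporters, and processes and organelles set beside the haf proteins, were described from lists written for this purpose. Against N2, 25.8% of all tested genes were called in either direction in egl-9, 29.5% in rhy-1 and 12.5% in vhl-1. The shares were 14.4% in hif-1, 6.55% in egl-9 hif-1 and 34.6% in egl-9;vhl-1. Where the count of a list is near these shares, it is not a result about the list. Among 16 other ABCB transporters, 5 were higher and 1 lower in rhy-1 against N2 (median log2 fold change 0.21) and 4 higher and 0 lower in hif-1 (median 0.45). In egl-9, 3 were higher and 3 lower, and in egl-9;vhl-1, 3 higher and 4 lower. The P-glycoprotein gene pgp-5 rose in rhy-1 (2.71 ± 0.44, edgeR adjusted p = 0.000156) and pgp-4 rose there as well (1.40 ± 0.25, 0.000329). The pair was also called higher in hif-1, egl-9;vhl-1 and egl-9, and pgp-4 in egl-9 hif-1.

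The other half-transporters were counted by class. Of 5 peroxisomal ABCD half-transporters, 1 was higher and 1 lower in egl-9, in hif-1 and in egl-9;vhl-1. The peroxisomal gene pmp-5 fell in egl-9 (−1.01 ± 0.20, edgeR adjusted p = 0.00103) and in hif-1 (−0.90 ± 0.20, 0.00722), and it was at 0.12 ± 0.20 in egl-9 hif-1. It was also called lower in vhl-1 and egl-9;vhl-1. Of 8 ABCG half-transporters, 2 were higher and 5 lower in egl-9;vhl-1 (median −0.95) and 2 higher and 0 lower in rhy-1 (median 0.0044). The ABCG gene wht-2 rose in egl-9;vhl-1 (0.49 ± 0.08, edgeR adjusted p = 8.37e-05), and wht-7 rose by 0.38 ± 0.10 (0.00670). Against N2, wht-2 was also called higher in egl-9, rhy-1, vhl-1 and egl-9 hif-1, and wht-7 in rhy-1.

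Of 9 ABCC transporters, 2 were higher and 2 lower in egl-9 (median −0.081) and 1 higher and 2 lower in egl-9;vhl-1 (median −0.015). The ABCC gene mrp-3 rose in hif-1 (0.54 ± 0.12, edgeR adjusted p = 0.00822) and fell in egl-9;vhl-1 (−0.78 ± 0.13, 0.000120) and in egl-9 (−0.45 ± 0.13, 0.0123). The ABCC gene mrp-7 rose in egl-9 hif-1 (0.37 ± 0.08, edgeR adjusted p = 0.0114) and was also called higher in egl-9, vhl-1 and egl-9;vhl-1. Of 5 ABCA transporters, 2 were higher and 0 lower in hif-1 (median 0.68) and 1 higher and 2 lower in egl-9;vhl-1 (median −0.23). The ABCA gene abt-1 rose in hif-1 (0.81 ± 0.26, edgeR adjusted p = 0.0432) and fell in egl-9;vhl-1 (−0.99 ± 0.28, 0.0103), and ced-7, which acts in the engulfment of dying cells, rose in rhy-1 (0.27 ± 0.07, 0.00750). The ced-7 gene was also called higher in egl-9;vhl-1.

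Of 26 listed RNA interference genes other than haf-6, 4 were higher and 1 lower in rhy-1 (median 0.044), 0 higher and 1 lower in hif-1 (median −0.049) and 4 higher and 0 lower in egl-9 hif-1 (median 0.070). In egl-9, 3 were higher and 0 lower, and in egl-9;vhl-1, 6 were higher and 0 lower. The RNA-directed RNA polymerase gene rrf-3 rose in rhy-1 (0.50 ± 0.14, edgeR adjusted p = 0.00846) and in egl-9 hif-1 (0.62 ± 0.14, 0.0101), and it was at 0.093 ± 0.14 in hif-1. It also rose in egl-9 (0.41 ± 0.14, edgeR adjusted p = 0.0303) and in egl-9;vhl-1 (0.63 ± 0.14, 0.00133), where haf-6 was not low. The gene mut-15, which encodes a protein of the germline Mutator foci, rose in rhy-1 (0.31 ± 0.11, edgeR adjusted p = 0.0324).

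The gut granule list had 15 tested genes, of which 3 were higher and 2 lower in rhy-1 (median −0.037) and 2 higher and 1 lower in egl-9;vhl-1 (median 0.010). The gene pgp-2, an ABC transporter of the gut granule membrane, fell in rhy-1 (−0.47 ± 0.12, edgeR adjusted p = 0.00598) and in egl-9;vhl-1 (−1.02 ± 0.12, 3.88e-06). It also fell in egl-9 (−0.86 ± 0.12, edgeR adjusted p = 3.01e-05) and in vhl-1 (−0.55 ± 0.12, 0.00540), where haf-4 was not called. The AP-3 subunit gene apb-3 rose in rhy-1 (0.22 ± 0.06, edgeR adjusted p = 0.0141) and was also called higher in egl-9, vhl-1 and egl-9;vhl-1. Of 11 tested genes of the mitochondrial unfolded protein response, the process in which haf-1 acts, 6 were higher and 2 lower in hif-1 (median 0.42) and 2 higher and 4 lower in rhy-1 (median −0.17). The regulator gene dve-1 rose in rhy-1 (0.85 ± 0.16, edgeR adjusted p = 0.000634), and the chaperonin gene hsp-60 fell (−0.66 ± 0.07, 1.06e-06). Against N2, dve-1 was also called higher in every other mutant genotype, and hsp-60 lower in every other one except egl-9 hif-1.

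Known HIF-1 targets were set beside haf-6. Of 11 genes of the pathway and its targets, 8 were higher and 0 lower in egl-9, 7 higher and 0 lower in rhy-1, 7 higher and 2 lower in vhl-1 and 4 higher and 3 lower in hif-1. The sulfide oxidoreductase gene sqrd-1 changed by 7.56 ± 0.21 in egl-9, 6.94 ± 0.20 in rhy-1, 5.02 ± 0.19 in vhl-1 and 7.87 ± 0.21 in egl-9;vhl-1. It changed by −1.67 ± 0.26 in hif-1 and −2.22 ± 0.28 in egl-9 hif-1. The cysteine synthase-like gene cysl-2 rose by 4.66 ± 0.13 in rhy-1 and fell by 0.96 in hif-1. Both targets were thus high in rhy-1 and low in hif-1 mutants, whereas haf-6 was low in all 3 of these genotypes and in the range of N2 or close to it in egl-9, vhl-1 and egl-9;vhl-1.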

How the data were processed

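The authors deposited kallisto tables with an estimated count and a TPM value for each of 32905 transcripts in each of 21 SmartSeq2 libraries. Per the submitters' processing notes the tools were bcl2fastq 1.8.4 and kallisto (version, transcript set and genome build: not given in the sources used here). Transcripts were matched to genes of Ensembl 115 (WBcel235), which may not be the build used: 28369 by transcript name, 4229 by sequence name and 307 not at all (0.102 to 0.127% of a library's counts). The unmatched were kept under their sequence names. Estimated counts were summed per gene and rounded, which gave 22037 genes. The deposited TPM values were summed per gene to compare levels between genes and entered no test.

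Genes were tested with edgeR 4.0.16 (R 4.3.3, limma 3.58.1), by the quasi-likelihood F-test on all 21 libraries, modelled by genotype alone, after TMM scaling and filterByExpr at a minimum count of 10. This kept 13043 genes. Calls were made in each of 11 pairwise comparisons and 2 interactions where the p adjusted by Benjamini and Hochberg's method was below 0.05. The CPM are counts scaled by library size and TMM, and a standard error is the log2 fold change divided by the square root of F. Nothing says that the 3 libraries of each genotype were separate cultures, so the p-values cover only the spread among libraries, which may be technical. The test was also run on counts simulated for all 21 libraries. They were drawn from the mean of each gene over these libraries, with the same spread for every gene and changes placed in egl-9. In egl-9 against N2 (12693 genes tested), it found 68 of 99 genes changed by 1 on the log2 scale. It found 93 of 99 changed by 2, with 8 false calls. The real spread differs between genes, so these rates do not carry over to a single haf gene. Alternatives were DESeq2 1.42.0, RLE size factors, no filter, a minimum count of 30, a replicate block, only the genotypes compared, 19578 transcripts tested 1 by 1, and each of the 21 libraries left out.

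The members and the gene lists were chosen with earlier results of these data known. All haf genes were named. From each of 9 lists (ABCB, ABCD, ABCG, ABCC and ABCA transporters, mitochondrial unfolded protein response, gut granules, RNA interference, HIF-1 pathway) the 2 genes called in the most genotypes against N2, with at least 5 CPM in the higher group, were named. Neighbours were the 4 nearest tested genes on each side. Marker lists of intestine, germline, sperm, L4 molt and zygotic embryo were counted beside them. The list entries pgp-15, wht-9, abt-3, abt-6 and timm-17 matched no gene name.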

Additional observations from a re-analysis of the deposited data

Results flagged for a closer look

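Among the named genes of the lists, 8 had effects of egl-9 loss that differed with the state of hif-1 or vhl-1, by edgeR's quasi-likelihood test of the interaction. No haf gene was among them. The named genes were picked for their calls against N2, from libraries that also enter the interaction, so this count is no evidence about them. Of all tested genes, 22.1% were called for the interaction of egl-9 and hif-1 and 8.79% for that of egl-9 and vhl-1. Each value is the log2 change of the double mutant minus the sum of the changes of the single mutants, and 3 libraries per genotype entered. With hif-1, the interaction was −2.22 for pgp-5, −0.59 for pmp-2, −0.72 for dve-1, −8.12 for sqrd-1 and −5.09 for cysl-2. It was positive, with 2.03 for pmp-5 and 0.57 for hsp-60. With vhl-1, it was −1.51 for abt-1, −4.71 for sqrd-1 and −2.68 for cysl-2. For pmp-5, a peroxisomal half-transporter gene, both single mutants were below N2 (−1.01 in egl-9 and −0.90 in hif-1) and the double mutant was at 0.12 ± 0.20.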

How the results depend on the processing

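Of 9 tested log2 fold changes of single haf genes, none changed sign under the 243 alternatives run. The call was as reported in 219 of these, was added in 14 and was removed in 10. The 10 haf-6 values given as descriptions had no call to follow. Of these, 7 kept their sign under all alternatives run, and 3 that lay near 0 did not: egl-9;vhl-1 against N2 ran down to −0.081 and was negative with RLE size factors, no filter, a minimum count of 30 or DESeq2, vhl-1 against N2 ran down to −0.094, and egl-9 hif-1 against hif-1 reached −0.13. The counts of called members other than haf-6 kept their value except as follows. With transcripts tested 1 by 1, the count was 0 in rhy-1 against N2, 0 in egl-9;vhl-1 against N2, 0 in egl-9 hif-1 against hif-1, 0 in egl-9;vhl-1 against vhl-1 and 1 in the interaction of egl-9 and hif-1. With only the genotypes compared, it was 1 in hif-1 against N2, 2 in egl-9 hif-1 against hif-1 and 0 in egl-9;vhl-1 against vhl-1. With RLE size factors, a minimum count of 30 or DESeq2, it was 2 in egl-9 hif-1 against hif-1 and 1 in the interaction of egl-9 and hif-1. With each library left out in turn, it ran from 1 to 2 in rhy-1 against N2 and in egl-9 hif-1 against hif-1, and from 0 to 1 in hif-1 against N2, in egl-9;vhl-1 against vhl-1 and in the interaction of egl-9 and hif-1. The haf-2 interaction was called without N2 replicate 1 (0.39), rhy-1 replicate 1 (0.33) or egl-9 hif-1 replicate 3 (0.41). The cause of these differences was not tested.

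Libraries with the same replicate number did not deviate together. Over 63 such pairs, the correlation of deviations from the genotype means ran from −0.32 to 0.30 (median 0.026), 20 pairs were above 0.1, and 10 of 21 libraries correlated best with their own number. A replicate block changed no haf call (haf-9 in egl-9;vhl-1 against N2: −0.72, edgeR adjusted p = 0.00209), and the count of all genes called in egl-9 against N2 was 3231 with it and 3363 without.

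Counts over all genes fell by more than 1.5 times with only the genotypes compared in egl-9 (2199), vhl-1 (923 of 1629), hif-1 (967 of 1872) and egl-9 hif-1 (241 of 854) against N2, in egl-9;vhl-1 against egl-9 (580 of 1105) and in egl-9 against vhl-1 (775 of 1559). With transcripts they fell as much in vhl-1 (834), hif-1 (624) and egl-9 hif-1 (432) against N2, egl-9;vhl-1 against egl-9 (243) and against vhl-1 (1430 of 2239), egl-9 hif-1 against hif-1 (2410 of 3982), egl-9 against vhl-1 (861) and the interaction of egl-9 and vhl-1 (528 of 1147). Leaving out 1 library also moved such counts by more than 1.5 times. In vhl-1 against N2 the count was 1007 and 1030 with vhl-1 replicates 1 and 2 removed in turn and 975 with N2 replicate 2 removed. In hif-1 against N2 it was 1090 and 841 without N2 replicates 1 and 2 and 1104 and 828 without hif-1 replicates 2 and 3. In egl-9 hif-1 against N2 it was 366 and 542 without N2 replicates 2 and 3 and 342 without egl-9 hif-1 replicate 3. In egl-9;vhl-1 against egl-9 it was 248, 1820 and 469 without egl-9 replicates 1, 2 and 3 and 301 and 420 without egl-9;vhl-1 replicates 1 and 3, and in the interaction of egl-9 and vhl-1 it was 688 without vhl-1 replicate 2. The haf-1 and haf-7 counts, at most 46 and 188 per library, limit the precision for these genes.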

Other observations

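Genes with the opposite split to haf-6 included 8 that were at least 2-fold higher in the 9 libraries of rhy-1, hif-1 and egl-9 hif-1 than in the other 12, and they were found by looking for that split. The asparagine synthetase gene asns-2 had a genotype mean of 157 CPM in rhy-1, 173 in hif-1 and 284 in egl-9 hif-1, against 71.7 in N2, 66.1 in egl-9, 28.9 in vhl-1 and 50.7 in egl-9;vhl-1. The serine/threonine phosphatase-like gene pph-7 had 30.2, 32.7 and 26.4 CPM in the first 3 genotypes and 11.7 to 16.9 CPM in the others. The inositol transporter gene hmit-1.2 had 21.5 CPM over the 9 libraries and 9.15 over the 12, and D2023.1 had 23.4 and 7.97 CPM. No test is given, since the genes were selected by these values.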
